A study of Mus musculus with 10 samples.

Results

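The chemokine, interleukin and receptor genes measured here were taken as every non-control probe whose gene name on the array starts with Ccl, Ccr, Cxcl, Cxcr or Il followed by a digit. The rule found 188 of the 41174 probes, and these stood for 132 of 27339 gene symbols; the array's Cxcr7 is the current Ackr3. By role they were 20 CC chemokines, 13 CXC chemokines, 11 CC and 7 CXC chemokine receptors, 40 interleukins with their soluble antagonists, 40 interleukin receptor chains and Il4i1, an enzyme named for its induction by interleukin 4. Chemokines are small secreted proteins that guide moving cells through G protein-coupled receptors. Many interleukins signal through receptor chains that recruit JAK kinases or, for the interleukin 1 family, MyD88 and IRAK adaptors, whereas others, Il34 among them, use other receptors. In the brain, several of them are made by neurons and glia in health (Cxcl12, Cxcl14, Il33, Il34), whereas many others are known chiefly from leukocytes.

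Hippocampal RNA came from adult offspring of ICR mice, an outbred stock. In the high estradiol group (HE, 5 animals), the dams had been given estradiol valerate by mouth, dissolved in corn oil, at 100 µg/kg/day on embryonic days E5.5 through E11.5. In the control group (NC, 5 animals), the dams had received corn oil alone. All 10 animals carry the label male and share strain, tissue and adult age. Litters are not given in the labels, so a p-value covers the spread among the sampled animals and no more. The exposure was of the dam, by the oral route and before birth, and the arrays read whole tissue, in which fewer cells of a type and less RNA per cell cannot be told apart.

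Each animal was read on 1 single-colour array. Signals are given as log2 values relative to the array's own 75th percentile, so 0 is the signal that 75% of probes lie below; that percentile was 898 to 1277 intensity units. Between 70.3% and 78.8% of probes, and 91 to 109 of the 188 chemokine and interleukin probes, were well above background on each array. Xist, the RNA of the inactive X chromosome, went against the male label on 7 arrays, the first 4 of NC and the first 3 of HE (3.21 to 4.45), where the Y-linked Ddx3y was -9.31 to -5.51. On NC 5, HE 4 and HE 5 Xist was -5.45 to -4.51 and Ddx3y 1.09 to 1.39. NC 1 to NC 4 lay on slide 1, NC 5, HE 1 and HE 2 on slide 2, and HE 3 to HE 5 on slide 3, each slide being 1 scan batch. The number of arrays limits the precision.

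Whole-tissue markers of other cells and regions also moved between the groups. The summed signal of 9 thalamic genes was 5.13 to 6.34 in NC and 2.88 to 4.57 in HE, and 8 of the 9 fell. Of 10 oligodendrocyte genes, a list added after the data were seen, 8 fell, with summed signals of 8.81 to 9.16 in NC and 8.01 to 8.40 in HE. Of 8 border macrophage and monocyte genes 2 fell (at most 4.89 in NC and at most 3.79 in HE, with no overlap), and of 6 liver genes 3 did (-5.08 to 2.06 against -5.88 to -3.56). The liver genes were high on NC 1, NC 2 and NC 4, at 1.44 or above, and lower on NC 5 (-1.63) and NC 3 (-5.08). Of 3 red cell genes measured, Hbb-bt fell by 1.01, and Hba-a1 and Alas2 differed by -1.18 and -1.19 without passing. Of 7 astrocyte genes 2 fell (7.61 to 7.76 against 7.24 to 7.43). Of 10 hippocampal neuron genes Rbfox3 rose by 0.93 and none fell (6.68 to 7.22 against 7.02 to 7.41). Of 13 microglial genes 1 rose and none fell (5.14 to 5.51 against 5.06 to 5.54). Over all genes tested, 6.48% rose and 13.9% fell by the test described below. The part of these marker shifts in the differences that follow was not tested.

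HE was set against NC to ask how excess estradiol in the dam's early pregnancy relates to expression in the adult offspring's hippocampus. Among the chemokine and interleukin genes, Cxcl14, Il34 and Il17d were higher in HE, by 1.40-fold to 1.76-fold. Il22, Ccl9, Cxcl10, Il12rb1, Il20rb, Il1rapl1, Ccl6, Il33, Il18bp and Il13ra1 were lower, by 8.63-fold for Il22, 4.86-fold for Ccl9 and 1.55-fold to 2.35-fold for the rest. A gene entered the test where either group had a probe well above background on 3 or more of its 5 arrays, and 73 of the 132 did; the other 59 are described further on. The test was limma's, with Benjamini-Hochberg adjustment over all 20065 genes that entered and a threshold of 0.05. The 3 higher members are 4.11% of the 73, against 6.48% of all genes tested, and the 10 lower members are 13.7%, against 13.9%. The shares of calls in these families were therefore near those of all genes, and the median log2 difference was -0.12 against -0.06. The 5 HE arrays all lay on 1 side of the 5 NC arrays for 10 of the 73 (13.7%), and for 16.5% of all genes.

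**Figure D1:**
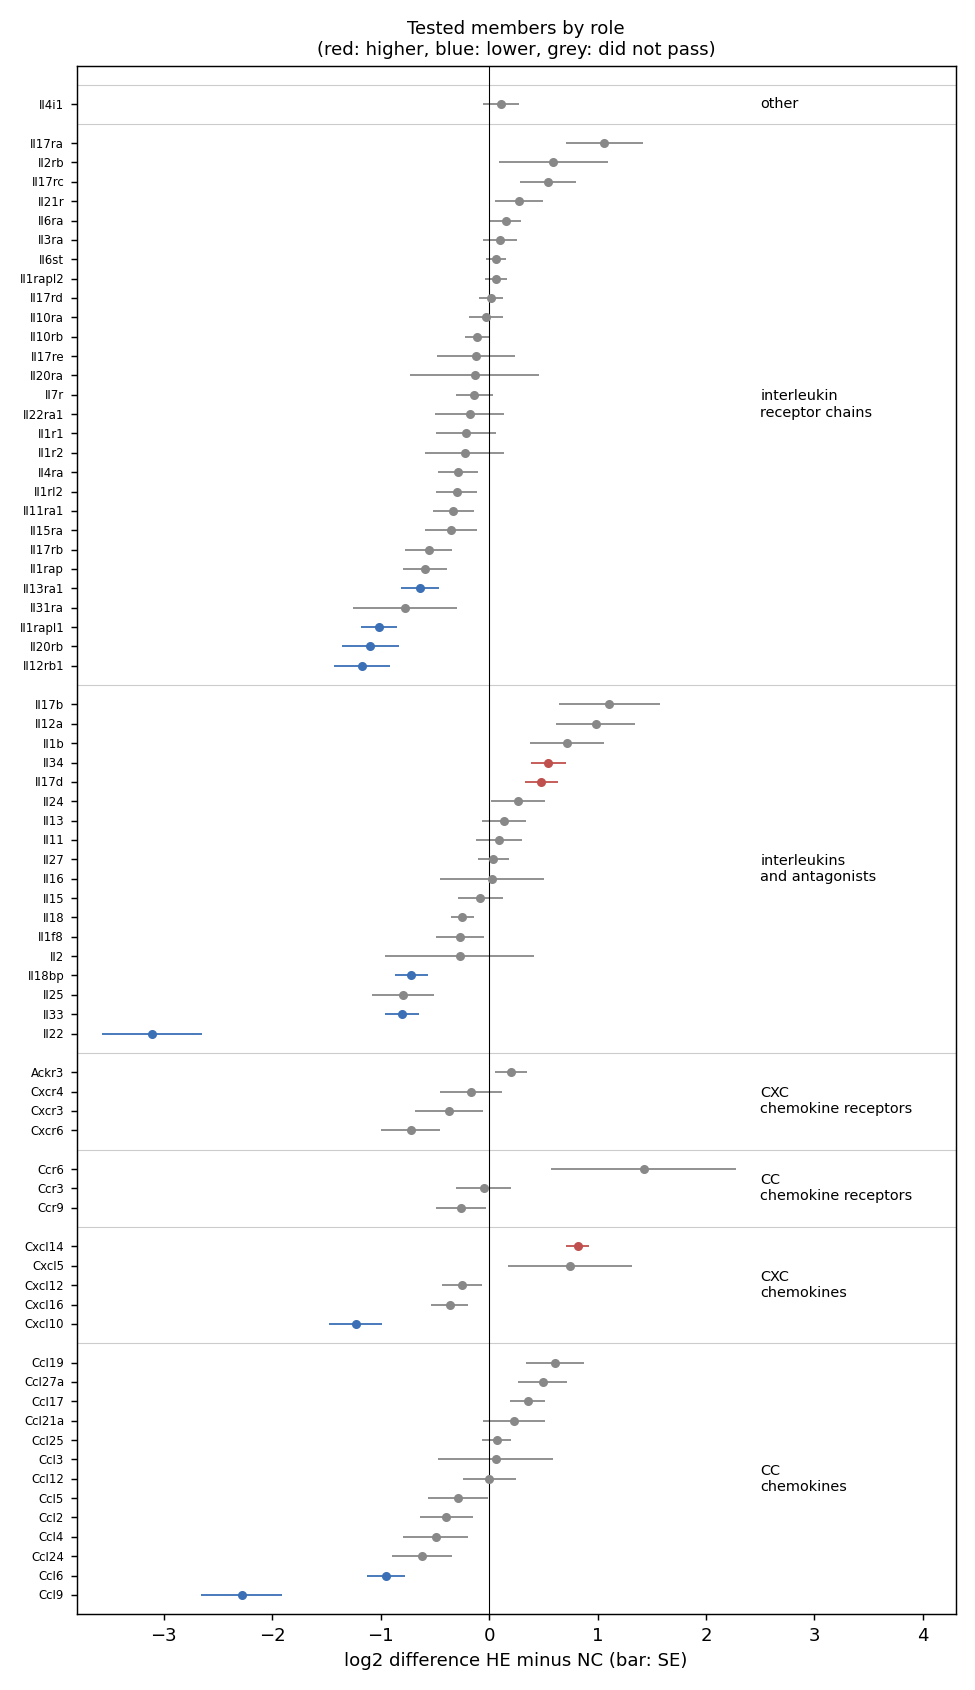
Log2 difference HE minus NC (horizontal axis, point with SE) of chemokine, interleukin and receptor genes that entered the test, grouped by role; 1 gene that did not pass is not drawn. Red points passed the limma test as higher, blue points as lower and grey points did not pass; Il22 (-3.11) and Ccl9 (-2.28) lie farthest left.

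Promoters are shown for 4 called chemokines, 2 of them neighbours on 1 chromosome that both fell (Ccl9 and Ccl6), 1 a textbook interferon target (Cxcl10) and 1 that rose (Cxcl14). Each run is the 250 bases before the gene's start in RefSeq (GRCm38.p6), 5′ to 3′ on the gene's strand, which is the minus strand for all 4. Capitals mark matches to the kappaB consensus, the interferon-response core (GAAA, any 2 bases, GAAA) or the TATA box (TATAAA), searched on both strands.
Ccl9, chr11:83578637-83578886: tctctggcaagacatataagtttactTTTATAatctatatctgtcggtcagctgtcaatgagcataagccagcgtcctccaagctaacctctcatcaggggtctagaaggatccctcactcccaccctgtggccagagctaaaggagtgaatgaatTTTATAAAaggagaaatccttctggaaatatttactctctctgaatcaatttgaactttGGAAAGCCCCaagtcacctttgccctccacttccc
Ccl6, chr11:83593088-83593337: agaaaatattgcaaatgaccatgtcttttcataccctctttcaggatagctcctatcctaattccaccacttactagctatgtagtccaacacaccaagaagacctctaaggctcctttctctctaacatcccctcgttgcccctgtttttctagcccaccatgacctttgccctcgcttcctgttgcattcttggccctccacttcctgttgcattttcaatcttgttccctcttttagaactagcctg
Cxcl10, chr5:92348890-92349139: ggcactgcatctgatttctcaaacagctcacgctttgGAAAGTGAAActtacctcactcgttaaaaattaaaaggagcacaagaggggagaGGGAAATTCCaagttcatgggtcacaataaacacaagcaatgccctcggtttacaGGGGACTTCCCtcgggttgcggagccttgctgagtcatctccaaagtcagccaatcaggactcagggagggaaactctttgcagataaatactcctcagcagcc
Cxcl14, chr13:56296552-56296801: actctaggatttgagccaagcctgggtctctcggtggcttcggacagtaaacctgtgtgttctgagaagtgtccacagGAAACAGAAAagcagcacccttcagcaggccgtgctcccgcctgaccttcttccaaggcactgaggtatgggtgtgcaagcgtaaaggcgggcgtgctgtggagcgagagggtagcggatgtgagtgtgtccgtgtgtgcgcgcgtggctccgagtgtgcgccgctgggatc
The Cxcl10 run held 1 interferon-response core and 3 kappaB matches, of which 2 overlap, and the Ccl9 run held 1 kappaB match and 3 TATA matches, of which 2 overlap on opposite strands. The Cxcl14 run held 1 interferon-response core, and the Ccl6 run none of the 3 motifs. Of all 32851 promoter windows of this length, 7.25% held a kappaB match, 2.98% the interferon-response core and 12.4% the TATA box. Of the 120 windows of chemokine and interleukin genes, 16, 5 and 24 did. None held the full estrogen-response palindrome (GGTCA, any 3 bases, TGACC), which 0.0639% of all windows held. These are matches of letters only, and 101 of the 132 genes had a window in the table.

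Of the 13 CC chemokines that entered, 2 fell and 11 did not pass. The share that fell was 15.4%, against 13.9% of all genes tested, of which 6.48% rose. Ccl9, a rodent chemokine of myeloid cells that acts through Ccr1 (probe at chromosome 11, 83388223 to 83388282, mm9, minus strand), read -0.84, -1.93, -0.36, -2.26 and -0.49 on NC 1 to NC 5. On HE 1 to HE 5 it read -2.97, -3.38, -3.85, -3.34 and -3.75. Every HE array lay below every NC array, and the NC arrays were split, with NC 2 and NC 4 lower than the other 3. The log2 difference was -2.28 ± 0.38 SE (limma adjusted p = 0.00856). Ccl6, its close relative (chromosome 11, 83401997 to 83402056, mm9, minus strand), read -1.94, -2.48, -1.82, -2.42 and -1.78 in NC and -3.13, -3.20, -3.19, -2.64 and -3.04 in HE. The order within NC was alike, with NC 2 and NC 4 lowest, and the groups again did not overlap (-0.95 ± 0.17 SE, limma adjusted p = 0.0108).

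Probes of 3 other CC chemokines lie in the same stretch of chromosome 11, and none of them passed in the main fit, although all 3 passed as lower with normexp background correction. Ccl5, a T cell and monocyte attractant, differed by -0.29 ± 0.28 SE, and Ccl4, an attractant of monocytes, by -0.49 ± 0.30. Ccl3, its close relative, differed by 0.06 ± 0.53, but by -1.30 with normexp, a change of sign (limma adjusted p = 0.0329). Beside the fall of Ccl9 and Ccl6, Lyz2 (-1.08) and Ly6c2 (-0.63) of the border macrophage and monocyte list fell as well. From the same list, Mrc1 and Cd163 differed by -0.59 and -0.18 without passing. Of 8 endothelial genes 1 fell (Kdr, -0.58) and 1 rose (Slco1c1, 0.77). Of 7 neutrophil genes, 2 fell (Ngp and Mpo), with a summed signal of -0.48 to 3.28 in NC and -0.45 to 0.26 in HE, and Elane was well above background on no array. The part of these cells in the fall of Ccl9 and Ccl6 was not tested. Without NC 1, NC 2 and NC 4, the arrays with the highest liver signals, both differences were larger (-3.03 and -1.24). That fit leaves out NC 2 and NC 4, the lowest NC arrays for both genes. It keeps NC 5, whose liver signal (-1.63) was above that of every HE array (at most -3.56). The part of liver transcripts was not tested.

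The other CC chemokines named here were measured on all arrays and did not pass in the main fit. Without NC 1, the highest NC array for each of them, Ccl17, Ccl19 and Ccl27a passed as higher. With normexp, Ccl19 and Ccl27a passed as higher and Ccl2 as lower. Ccl19, a Ccr7 ligand, was 3.78 ± 0.61 (SD, n = 5) in NC and 4.39 ± 0.24 in HE. Ccl27a was 3.98 ± 0.47 and 4.47 ± 0.28, Ccl21a -1.58 ± 0.57 and -1.35 ± 0.42, and Ccl17 -0.20 ± 0.32 and 0.16 ± 0.19, while Ccl25 differed by 0.07 ± 0.13 SE. The mouse genome carries near-identical copies of Ccl21a and Ccl27a, so their probes may read several copies. The Ccl27a probe lies close to that of Il11ra1 on the opposite strand of chromosome 4. Ccl2, the main monocyte attractant, differed by -0.39 ± 0.24 SE.

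Among the 5 CXC chemokines that entered, Cxcl14 rose and Cxcl10 fell. Each is 20% of the 5, where 6.48% of all genes tested rose and 13.9% fell. Cxcl14, a chemokine with constitutive expression in brain and skin (chromosome 13, 56390078 to 56390137, mm9), read 3.61, 3.89, 3.69, 3.99 and 3.47 in NC. It read 4.59, 4.48, 4.65, 4.49 and 4.54 in HE. All HE arrays were above all NC arrays and lay closer together (SD 0.07 against 0.21), with a log2 difference of 0.82 ± 0.11 SE (1.76-fold, limma adjusted p = 0.00458). Cxcl10, an interferon-induced ligand of Cxcr3 (chromosome 5, 92775781 to 92775840, mm9), read -4.84, -4.39, -4.24, -3.81 and -3.90 in NC. The HE values were -5.04, -6.09, -5.70, -5.28 and -5.22, all below NC although HE 1 came close to NC 1. Its log2 difference was -1.23 ± 0.24 SE (limma adjusted p = 0.0131).

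Cxcl12, which holds progenitors and interneurons in place through Cxcr4 and Ackr3, is made as several splice forms, and its 2 probes went opposite ways. The brighter probe (chromosome 6, 117131227 to 117131286, mm9), assigned to transcript NM_001012477, was 0.53 ± 0.33 in NC and 0.28 ± 0.27 in HE and did not pass. The other (117124474 to 117124533), assigned to NM_021704, read -2.57, -2.26, -2.86, -2.34 and -2.24 in NC and -1.59, -1.59, -2.05, -1.73 and -1.61 in HE. On this probe the groups did not overlap (0.74 ± 0.15 SE, limma adjusted p = 0.0113 over all probes that entered). The difference between the probes was not tested. Cxcl16, a membrane-bound ligand of Cxcr6, differed by -0.36 ± 0.17 SE without passing in the main fit. It passed as lower with normexp and without NC 1, NC 2 and NC 4. Cxcl1, a neutrophil attractant, was well above background on 3 of 10 arrays and did not enter.

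None of the 8 chemokine receptors that entered passed the test in either direction in the main fit, where 6.48% of all genes rose and 13.9% fell. With normexp background correction, Ccr9, Cxcr3, Cxcr4 and Cxcr6 of those named below passed as lower, as did 35.3% of all genes. Cxcr4 was -4.61 ± 0.68 in NC and -4.77 ± 0.20 in HE, and its second probe had the opposite sign. Ackr3, which scavenges Cxcl12, was -0.65 ± 0.23 and -0.45 ± 0.24. Cxcr3, the Cxcl10 receptor, stood well above background on 3 NC and 3 HE arrays (-0.37 ± 0.31 SE). Cxcr6 differed by -0.72 ± 0.27 SE (limma adjusted p = 0.0815). Ccr9, the Ccl25 receptor, differed by -0.26 ± 0.23 SE.

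Ccr6, the Ccl20 receptor, showed the largest fitted difference among the receptors without passing (1.42 ± 0.85 SE, limma adjusted p = 0.25). It read -3.05, -0.53, -0.28, -5.22 and -1.31 in NC and -0.47, -1.34, 0.05, -0.59 and -0.92 in HE. The groups overlapped, and NC 1 and NC 4 were the low arrays. Ccr2, the Ccl2 receptor of blood monocytes, was well above background on 1 of 10 arrays and was not tested.

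Of the 18 interleukins and antagonists that entered, 2 rose, 3 fell and 13 did not pass. The shares were 11.1% higher and 16.7% lower, against 6.48% and 13.9% of all genes tested. Il34, a neuron-derived ligand of the microglial receptor Csf1r (chromosome 8, 113265835 to 113265894, mm9), read 2.29, 2.12, 1.72, 2.24 and 1.51 in NC and 2.44, 2.41, 2.67, 2.39 and 2.71 in HE. The groups did not overlap, by a narrow margin (0.55 ± 0.16 SE, limma adjusted p = 0.0412). Il34 passed in 2 of the 10 fits that leave out 1 array (0.43 to 0.63, highest adjusted p = 0.0878). Csf1, the other Csf1r ligand, fell (-0.45, limma adjusted p = 0.0345), and Csf1r itself did not pass (0.28). Cx3cr1 was the 1 microglial marker of 13 that rose (0.63), and its neuronal ligand Cx3cl1 rose by 0.85.

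Il17d, a member of the interleukin 17 family (chromosome 14, 58161919 to 58161978, mm9), read 1.35, 1.54, 1.51, 1.70 and 0.93 in NC and 1.94, 1.61, 2.09, 1.83 and 1.97 in HE. HE 2 lay below NC 4, and the difference of 0.48 ± 0.15 SE passed narrowly (limma adjusted p = 0.0485). It passed in 2 of the 10 fits without 1 array (0.36 to 0.56).

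Il33, a nuclear alarmin of the interleukin 1 family that glia express (chromosome 19, 30034990 to 30035049, mm9), read 1.01, 1.38, 1.35, 1.42 and 1.95 in NC. It read 0.76, 0.52, 0.78, 0.42 and 0.62 in HE. Every HE array was below every NC array, NC 5 being the highest (-0.80 ± 0.16 SE, limma adjusted p = 0.0133). Its receptor Il1rl1 was well above background on 2 of 10 arrays by its brightest probe and was not tested. Beside this fall stand those of the oligodendrocyte genes Mbp (-0.61) and Mobp (-0.90), and of the astrocyte genes Aqp4 (-0.89) and S100b (-0.85), 2 of 7 astrocyte markers. The astrocyte transporters Slc1a3 and Slc1a2 differed by 0.21 each without passing, and Gfap by -0.73. The part of these cells in the Il33 difference was not tested.

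Il18bp, the secreted antagonist of interleukin 18 (chromosome 7, 109164100 to 109164159, mm9), read -2.17, -2.27, -2.67, -2.87 and -2.38 in NC and -3.28, -3.01, -3.42, -3.28 and -2.97 in HE. The groups did not overlap (-0.72 ± 0.15 SE, limma adjusted p = 0.0152), and a second probe differed by -0.73 ± 0.12 SE, also with no overlap. Il18 itself was 1.09 ± 0.19 in NC and 0.84 ± 0.12 in HE and did not pass (-0.25 ± 0.11 SE, limma adjusted p = 0.133). Without NC 1, Il18 passed as lower.

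Il22, a cytokine of lymphoid cells that acts on epithelia, had the largest fitted fall. Its brighter probe (chromosome 10, 117646736 to 117646795, mm9) read -3.43, -3.71, -2.06, -2.81 and -2.82 in NC and -6.52, -6.95, -4.77, -5.38 and -6.76 in HE. It was well above background on all NC arrays and on 4 of 5 HE arrays, and the groups did not overlap (-3.11 ± 0.46 SE, limma adjusted p = 0.00657). The second probe (117646653 to 117646712) was well above background on all NC arrays (-4.88 to -3.67) but on only 2 of 5 HE arrays (-8.14 to -6.19), so its HE level is mostly an upper bound. RefSeq lists a sister gene, Iltifb, and which of the copies the probes read was not tested. Of 9 T and NK cell genes 6 entered and none passed, and Cd3g, Cd8a and Cd2 were well above background on 1 of 10 arrays each. The part of such cells in the Il22 difference was not tested.

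**Figure D2:**
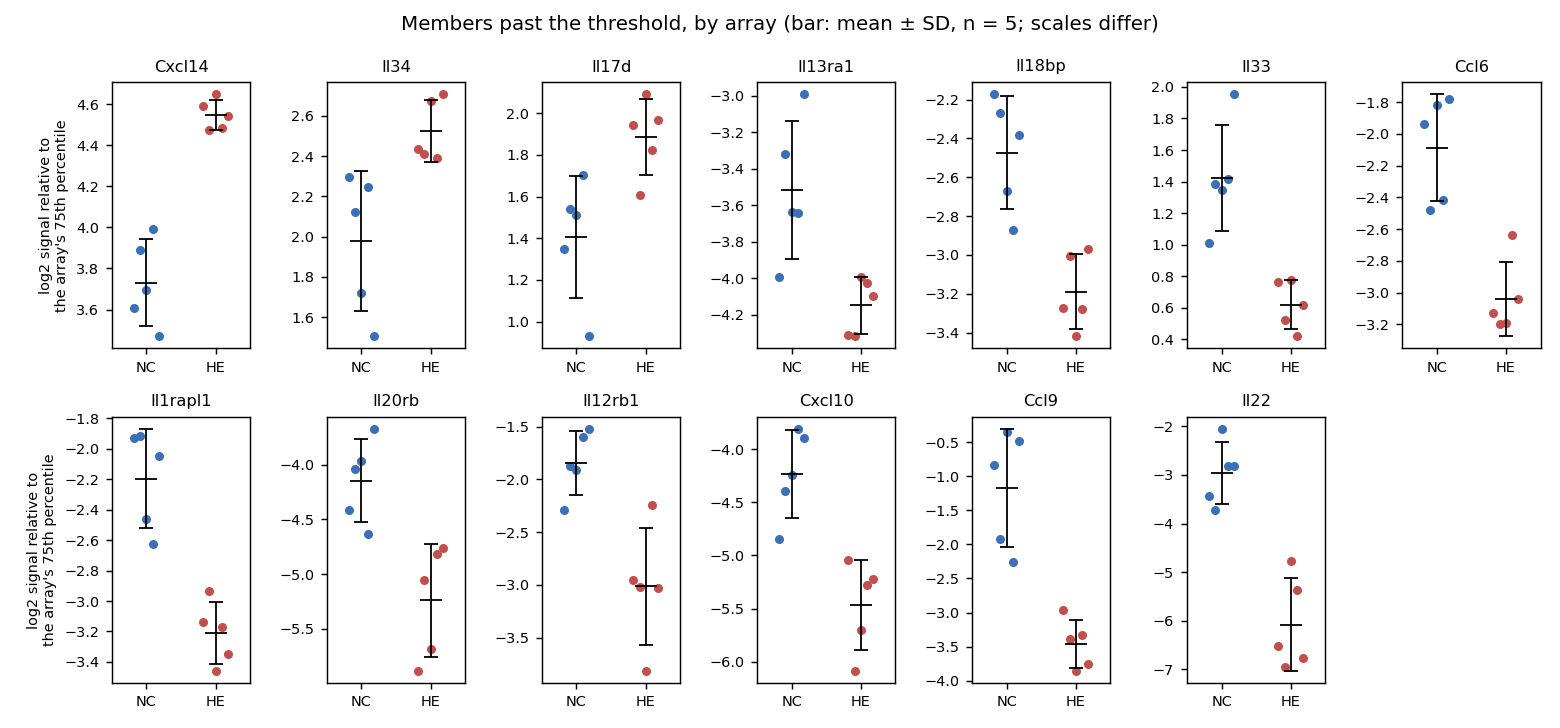
Log2 signal relative to each array's 75th percentile (vertical axes, which differ) of the 13 called genes in NC (blue) and HE (red), 1 point per array, with mean and SD (n = 5). The arrays of the 2 groups do not overlap for 10 of the 13; those of Il17d, Il13ra1 and Il12rb1 do.

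The classical inflammatory interleukins were low. Il1b, a product of activated microglia, was -5.92 ± 0.59 in NC and -5.20 ± 0.60 in HE and did not pass (limma adjusted p = 0.153); after quantile normalization it passed as higher. Il12a read -4.26 ± 0.69 and -3.27 ± 0.59 (0.98 ± 0.37 SE, limma adjusted p = 0.0811) and also passed as higher after quantile normalization. Il15 differed by -0.08 ± 0.21 SE and Il16 by 0.03 ± 0.48 SE, and Il15 passed as lower with normexp. Il6 and Il10 were well above background on no array, and Il1a and Il1rn on 1 and 2 arrays. On most arrays these 4 therefore have only an upper bound.

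Of the 28 interleukin receptor chains that entered, 4 fell, none rose and 24 did not pass. The share that fell was 14.3%, against 13.9% of all genes tested, of which 6.48% rose. Il1rapl1, a synaptic adhesion protein of the interleukin 1 receptor family encoded on the X chromosome, read -1.93, -1.92, -2.46, -2.62 and -2.05 in NC. Its HE values were -3.14, -2.93, -3.46, -3.17 and -3.35, with no overlap (-1.01 ± 0.16 SE, limma adjusted p = 0.00804). The related Il1rapl2 differed by 0.06 without passing. Il12rb1, a chain shared by the receptors for interleukins 12 and 23 (chromosome 8, 73345189 to 73345248, mm9), read -2.29, -1.88, -1.91, -1.60 and -1.52 in NC and -2.96, -3.02, -3.82, -2.24 and -3.03 in HE. HE 4 lay just above NC 1, and HE 3 was the lowest (-1.17 ± 0.26 SE, limma adjusted p = 0.0171).

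Il20rb, a chain of the receptors for interleukins 19, 20 and 24 (chromosome 9, 100383659 to 100383718, mm9), read -4.42, -4.04, -3.97, -4.63 and -3.68 in NC. It read -5.88, -5.05, -5.68, -4.82 and -4.77 in HE, all below NC (-1.09 ± 0.26 SE, limma adjusted p = 0.0207). A second probe differed by -0.55 ± 0.72 SE and did not pass, nor did the mean of both. Without NC 2 the adjusted p of Il20rb was 0.0508. Il13ra1, which pairs with Il4ra to bind interleukins 4 and 13 (chromosome X, 33709153 to 33709212, mm9), read -4.00, -3.32, -3.63, -3.64 and -2.99 in NC and -4.31, -4.32, -4.00, -4.02 and -4.10 in HE. NC 1 met the HE range, and the difference was -0.63 ± 0.17 SE (limma adjusted p = 0.0321). Its second probe differed by -0.17 ± 0.20 SE, quantile normalization ended the call (-0.39, adjusted p = 0.16), and 4 of the 10 fits without 1 array kept it. Il4ra differed by -0.28 ± 0.18 SE in the main fit and passed as lower with normexp.

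Il1rap, the chain that Il1r1 and Il1rl1 both need to signal, had 5 probes on chromosome 16, all lower in HE on average, and its brightest did not pass (-0.59 ± 0.20 SE, limma adjusted p = 0.0648). The gene passed as lower by the mean of its probes, with an intensity trend, with normexp and without NC 1, NC 2 and NC 4. The probe assigned to transcript NM_134103 (26701498 to 26701557, mm9) read -0.67, -1.11, -1.12, -1.40 and -1.24 in NC and -2.39, -2.05, -3.13, -1.94 and -2.66 in HE. On it the groups did not overlap (-1.32 ± 0.23 SE, limma adjusted p = 0.00848 over all probes that entered). The probe assigned to NM_001159318 differed by -0.99 ± 0.32 SE (adjusted p = 0.0462), with overlap. Differences between the probes were not tested. Il1r1, the signalling receptor for interleukin 1, differed by -0.21 ± 0.28 SE, and Il1r2, a decoy, by -0.23 ± 0.36 SE. With normexp, Il1r2 passed as lower.

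**Figure D3:**
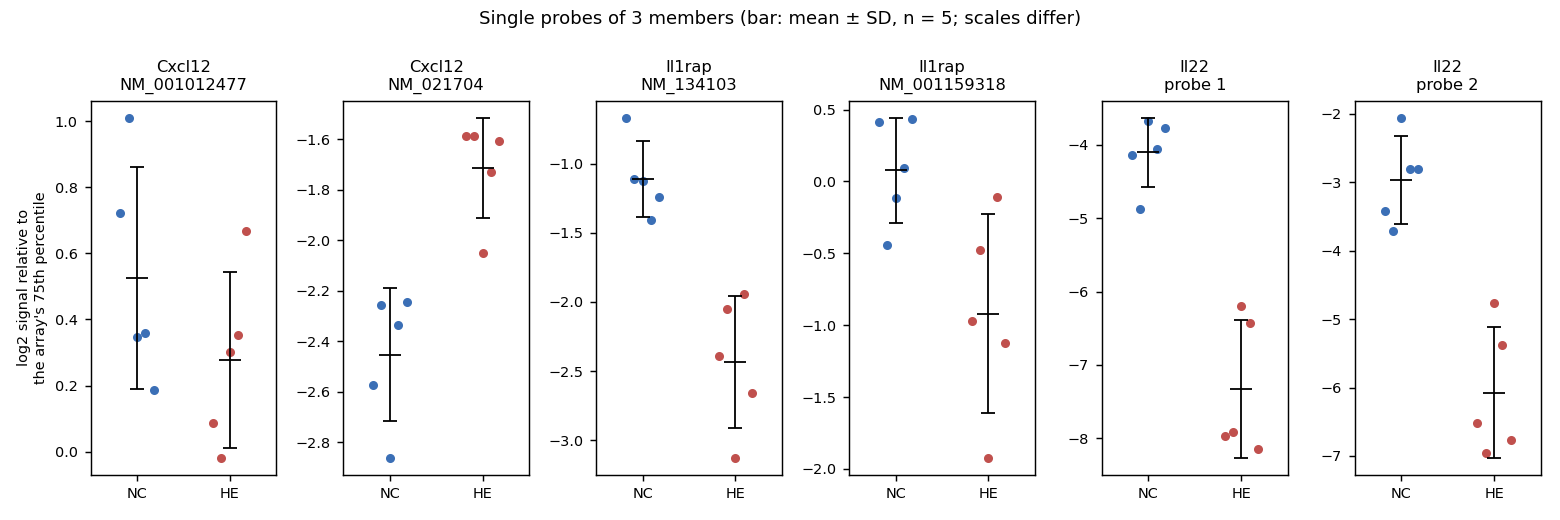
Log2 signal relative to each array's 75th percentile (vertical axes, which differ) of single probes of Cxcl12, Il1rap and Il22, with 1 point per array and mean and SD (n = 5). The NM_021704 probe of Cxcl12 is higher in HE and its other probe is not, whereas both Il22 probes (probe 1 well above background on 2 HE arrays only) and the NM_134103 probe of Il1rap are lower with no overlap.

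The other receptor chains named here did not pass in the main fit. After quantile normalization Il6ra and Il17ra passed as higher. Il6st, the gp130 chain, was 0.63 ± 0.16 in NC and 0.69 ± 0.07 in HE (0.06 ± 0.09 SE). Il6ra differed by 0.15 ± 0.14 SE, Il10ra by -0.03 ± 0.16, Il10rb, the chain that Il22 also uses, by -0.11 ± 0.11, and Il17rd by 0.02 ± 0.11. Il11ra1 differed by -0.33 ± 0.19 SE. Il17ra was nearest to the threshold among genes that did not pass (1.06 ± 0.35 SE, limma adjusted p = 0.0586), and Il17d and Il34 were the called genes nearest to it on the other side. Il2rg, the common gamma chain, was well above background on no array.

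The 59 genes that did not enter belonged to every role except that of Il4i1. They were 7 CC and 8 CXC chemokines, 7 CC and 3 CXC receptors, 22 interleukins and 12 receptor chains, and 35 of the 132 genes were well above background on no array. Of the 73 that entered, 71 did so through both groups and 2 through HE alone. With no filter, all 132 genes were tested among 27339: 1 rose (0.758%, against 3.24% of all genes) and 12 fell (9.09%, against 9.52%). Among these 12, Il4 (-8.20 in NC and -8.74 in HE) and Il9 (-8.35 and -8.98) were well above background on no array. Their falls are therefore differences between undetected signals and were not read as lower expression. The median over the 132 was -0.27, against -0.16 over all genes.

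Genes that carry or tune these signals were taken from a list that shares 1 gene, Ackr3, with the members. Of 84 that entered, 7 rose and 6 fell, with a median of -0.002. Over all genes tested, 6.48% rose and 13.9% fell, with a median of -0.06. Among chemokine genes outside the naming rule, Ackr2, a scavenger of CC chemokines, rose by 1.44, Ccrl2 fell by 0.77 and Ppbp, a platelet chemokine, fell by 1.72. Gnb1 and Grk2 of the receptor machinery rose by 0.42 and 0.40. None of 11 JAK and STAT genes, 11 inhibitors of JAK signalling, 10 interleukin 1 receptor adaptors and 3 inflammasome genes passed. In the gp130 family, Cntf and Osmr fell by 0.80 and 0.55, and in the NF-kappaB list Nfkbib, an inhibitor subunit, rose by 0.41. Of related cytokine genes, Crlf2 rose by 0.65 and Ifngr1 fell by 0.32.

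Slide and sex pattern were partly bound to the groups, and the 13 called genes were refitted with each. With slide as a block, which leaves NC 5 against HE 1 and HE 2, all 13 kept their direction and Il33 alone among them passed (-1.31, limma adjusted p = 0.0499; the others 0.0512 to 0.206). The single gene added was Il31ra, so 0 members rose and 2 fell, against 0.568% and 0.454% of all genes. Slide 2 taken alone holds NC 5 as its only NC array, and the median difference there was -0.13 for the members and -0.14 for all genes. On the 7 high-Xist arrays alone no member passed, and of all 20065 genes only 7 rose and 70 fell. That 0 therefore says little about the members. All 13 called genes kept their direction there and on the 3 low-Xist arrays, where NC 5 is the only NC array. With the Xist signal as a covariate the same 13 passed, and Il17ra was added as higher. On the high-Xist arrays no slide holds both groups, and the effects of slide and group cannot be told apart in them. The same holds for the low-Xist arrays, NC 5 on slide 2 against HE 4 and HE 5 on slide 3. With slide as a block, low-Xist NC 5 stands against high-Xist HE 1 and HE 2, so sex pattern and group cannot be told apart. In both fits the group difference rests on NC 5 alone of the NC arrays, which had the highest Il33 value (1.95).

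Scaling changed the balance of the calls. Quantile normalization gave 8 higher and 9 lower members (11% and 12.3%), and over all genes 9.47% rose and 12% fell. Higher members were 47.1% of the member calls, against 23.1% in the main fit. The median of the members was then 0.06. With normexp background correction, 5 members rose (6.85%, against 8.9% of all genes) and 38 fell (52.1%, against 35.3%). In that setting the share of members that fell was above that of all genes, unlike in the main fit. There the median of all genes itself moved to -0.29, and that of the members to -0.96.

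**Figure D4:**
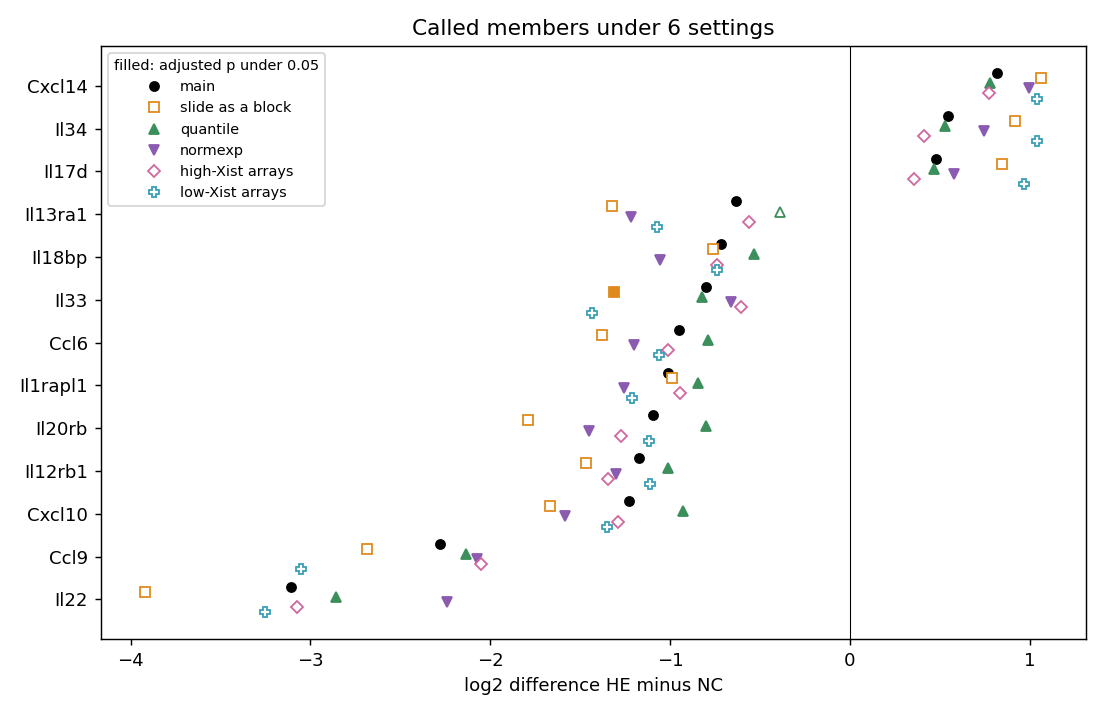
Log2 difference HE minus NC (horizontal axis) of the 13 called genes in the main fit, with slide as a block, after quantile normalization, with normexp and on the high-Xist or low-Xist arrays alone; filled symbols have an adjusted p under 0.05. No symbol crosses 0, and with slide as a block only that of Il33 is filled.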

How the data were processed

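Images of the 1-colour Agilent arrays were read with version 10.7 of Agilent Feature Extraction, according to the submitters' processing notes. Per the file headers, the deposited intensity values are linear, and the processed signal already had background subtraction and detrending. The authors also deposited a table of log2 values whose making is not given in the sources used here. It matched log2 signals after quantile normalization (slopes of 1.0021 to 1.0024, column medians of 7.0334 to 7.0337), so its scale and direction are known and no centring was seen.

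Non-uniform and outlier spots were dropped (68 to 129 on each array), and none was saturated. Spots were averaged per probe, and log2 signals were set against the 75th percentile of all probes on that array. Probes well above background on 3 or more of 5 arrays of a group were kept, and the brightest kept probe stood for its gene. The RefSeq table (GRCm38.p6) named the probes, 27668 of 41174 by accession. Probe positions are those in the files, on mm9, and promoters came from RefSeq. The test of 5 against 5 arrays was limma's (version 3.58.1, R 4.3.3, lmFit with eBayes), two-sided, with Benjamini-Hochberg adjustment over all genes. It was tried on simulated independent values without slide, sex or litter structure, so that trial does not cover these features of the arrays.

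The genes, gene lists and named genes were chosen with earlier results of these data known. Named are all called members, the 3 with the smallest p in each role and a fixed set of well-known members. 1 item that this rule takes is not reported here. Il1rapl2, Il17ra and Il31ra, the single probes of Cxcl12 and Il1rap, and the named genes of other lists were chosen after their values were seen. Alternatives tried were a fixed or random block for slide, only slide 2, a block for the replicate number, the Xist pattern, leaving out NC 1, NC 2 and NC 4 or each array, normexp with an offset of 50, quantile normalization, the deposited table, other filters, other uses of probes, and an intensity trend with a robust prior.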

Additional observations from a re-analysis of the deposited data

Results flagged for a closer look

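Of 114 groups of 5 arrays examined, 6 held an array whose gap to its nearest neighbour was large for the range of its group, which chance alone gives in about 1 in 20 groups. Il1rn, the interleukin 1 receptor antagonist, read -2.897 on HE 1, where the other HE arrays read -9.277 to -8.756. Il16 read -0.704 on NC 4, against -2.730 to -2.445 in the rest of NC. Il1r2 read -3.739 on HE 5, against -5.237 to -5.075. Ccl21a read -0.613 on HE 2, against -1.665 to -1.422. Il10 read -7.053 on NC 5, against -8.057 to -7.971, with none of these values well above background. Ccl6 read -2.639 on HE 4, against -3.199 to -3.041, and stayed below every NC array.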

How the results depend on the processing

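The count of higher members (3) changed by over 1.5 times with slide as a fixed block and on the high-Xist arrays alone (0 each). It also did so with no filter (1), after quantile normalization or in the deposited table (8 each), and with normexp (5). The count of lower members (10) changed by over 1.5 times with slide as a fixed block (2), on the high-Xist arrays (0) and with normexp (38). On the high-Xist arrays, only 7 of all 20065 genes rose and 70 fell. No counts are given for slide 2 alone or the low-Xist arrays alone, where NC 5 is the only NC array. In the other settings with all 10 arrays or without NC 1, NC 2 and NC 4, apart from the replicate block below, 2 to 4 members were higher and 9 to 12 lower. Leaving out 1 array at a time gave 1 to 7 higher members, 7 without NC 1 and 1 without NC 2, NC 5, HE 1, HE 4 or HE 5, and 8 to 12 lower members. The counts over all 20065 genes moved in these fits too, from 566 to 1411 higher and from 1414 to 2818 lower. With the replicate number as a block, 1 member was higher and 10 were lower, where 723 of all 20065 genes were higher and 2314 lower. Same-numbered arrays deviated together with correlations of -0.077 to 0.127, so the numbers were not read as pairs. Of 1146 refitted values of the 46 named members that were tested, 1 reversed with a call (Ccl3, -1.297 with normexp), 86 lost a call, 30 gained one and 86 changed sign without one; the cause was not tested. No called member changed sign. Cxcl14, Ccl9, Ccl6, Cxcl10, Il1rapl1, Il33, Il18bp, Il12rb1 and Il22 passed in all 10 fits without 1 array. Il18bp, Il12rb1, Il20rb and Il17d did not pass without NC 1, NC 2 and NC 4. Dim signals limit the 59 members that did not enter.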

Other observations

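Several members varied between animals within a group more than between groups. Il16, a T cell attractant with a neuronal form, was high on NC 4, HE 2 and HE 4 (-0.70, -1.22 and -1.35) and between -2.82 and -2.45 on the other 7 arrays, and its second probe was higher on these 3 arrays (-4.98 to -3.83) than on 5 of the others (-6.29 to -6.00 on NC 2, NC 5, HE 1, HE 3 and HE 5), but read -4.36 on NC 3 and -5.16 on NC 1. Cxcl5, a neutrophil attractant, read -2.39 on HE 1, the array on which Il1rn was also high, and -6.02 to -4.63 on the other 9. Il2 read -2.19 on NC 5 by 1 probe, against -6.38 to -4.44 elsewhere, while its second probe rose above background nowhere. Il31ra read -2.76 on NC 5, against -5.92 to -4.90 elsewhere, and NC 5 is the only NC array on slide 2. These genes, apart from Il16, were chosen after their values were seen, and nothing about the cause was tested.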
